A study of Homo sapiens with 4 samples.

Results

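The 9 genes described here, FDXR, TIGAR, TP53I3, GLS2, PANK1, CMBL, SCO2, CES2 and ACER2, are p53 targets that encode enzymes of metabolism and redox control. They were chosen by name, and 8 of the 9 matched 1 of the 25693 human genes in the deposited table by Ensembl identifier. CMBL had no row and is not analysed here. Of the 8, 6 passed the filter on low counts, against 14830 genes in all. The cells were NGP, an established human neuroblastoma line with amplified MYCN, all of them synchronised by serum starvation. For the next 24 h they received Nutlin-3, a small molecule that keeps MDM2 off p53, or its solvent ethanol. RNA was read at the 3' end of polyadenylated transcripts on the ddSeq droplet device, in 2 libraries per treatment that differed in the dilution of added ERCC control RNAs, 1000-fold or 10000-fold. The deposited columns named the treatment and not the library, so each treatment is 1 pool of 250 columns, no difference has a replicate check, and no test between treatments was possible. In such pools fewer expressing cells and less RNA per cell cannot be told apart.

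p53 is a transcription factor that is kept scarce by MDM2. When it is released from MDM2 it binds paired copies of a short motif near its target genes, and besides arrest and death genes it acts on genes that set how a cell handles sugar, glutamine, electrons and lipids. In neuroblastoma p53 is usually intact at diagnosis, which is why blockers of the MDM2 contact are studied in such lines. Several of the proteins described here sit in mitochondria, where FDXR passes electrons to ferredoxins, SCO2 helps to build cytochrome c oxidase and GLS2 splits glutamine.

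Because the genes are grouped by their link to p53, the stretches around their transcription starts that hold letters of the p53 motif are shown first. RefSeq promoter windows (GRCh38.p14, 250 bases before to 50 after each annotated start, 300 in all) were at hand for 7 of the 9 genes, in 10 windows. They were searched for the p53 decamer, the 10-letter unit of the p53 motif, which reads the same way on both strands. An exact decamer was found in 2 of the 10 windows, belonging to FDXR and PANK1, and 6.63% of all 35116 windows hold at least 1. A decamer with 1 letter off outside its 4 central letters was found in 4 of the 10 windows, against 28.0% of all windows. The sequences below run 5' to 3' on the strand of the gene, and capitals mark the matching letters.
FDXR, chr17:74872986-74873015, minus strand, first capital 11 bases before a start: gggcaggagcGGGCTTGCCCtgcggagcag
PANK1, chr10:89645246-89645275, minus strand, first capital 23 bases before a start: gggcaggactGGGCATGCTCagtggcgggg
GLS2, chr12:56488112-56488137, minus strand, first capital 29 bases after a start: gccggAGGCTTGCTGGGGCATGCGCt
In GLS2 the capitals are 2 decamers, each with 1 letter off, that follow each other without a gap. FDXR and PANK1 have 2 annotated starts each, and only 1 of the 2 windows of each gene held an exact decamer. These matches describe the reference sequence. Nothing in the table reports binding of p53, and reads from the 3' end do not tell which start was used.

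The pools held 1342134 human counts in ethanol and 1301232 in Nutlin-3. In each treatment 113 columns exceeded 4000 counts and are called large, and the other 137 are called small. Ethanol and Nutlin-3 columns shared 219 names. Most nonzero values of large columns were exactly 1, namely 91.8% under ethanol and 92.5% under Nutlin-3. Whether a column is a single cell, and whether repeated counts of a gene within a column were merged before deposit, is not given in the sources used here. If they were merged, the folds of widely seen genes are too small and a count is close to a column with the gene. The intervals given below would then not hold as stated. For FDXR in Nutlin-3, for example, the 106 counts of large columns lay in 102 columns, 4 of them with more than 1. Merging was not tested. Genes used to check the treatment were higher with Nutlin-3: CDKN1A, the cell cycle inhibitor p21, had 70 counts under ethanol against 188, and MDM2 had 315 and 504. All 8 adrenergic neuroblastoma markers were present, with 2562 counts together in ethanol and 2336 in Nutlin-3. The markers of other cell types were sparse, with 113 and 109 counts for 5 mesenchymal genes, 24 and 49 for LYZ, the single blood cell marker of 6 with a row, 19 and 21 for 3 epithelial genes, and 1 and 2 for VWF, the only endothelial gene with a row. Among them LYZ and COL1A1 were higher and LUM lower in Nutlin-3 by the rule given next, and their part in the results was not tested.

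A gene was called higher in Nutlin-3 where its log2 fold change was at least 0.5 and the 95% interval of that value lay above 0, and lower in the mirrored case. These intervals, like the Poisson intervals of single counts, cover counting error alone and take the counts as not merged. By this rule 3.86% of the 14830 genes were called higher and 2.86% lower. Of the 6 members that passed the filter, 4 were called higher, FDXR, TIGAR, GLS2 and CES2, and 0 lower. Their median log2 fold change was 0.81, where the median over all genes was -0.0011 and 95% of them fell within -0.92 to 1.12. GLS2 passed the filter only through its Nutlin-3 count, so it could hardly enter this count or this median without being higher.

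**Figure D1:**
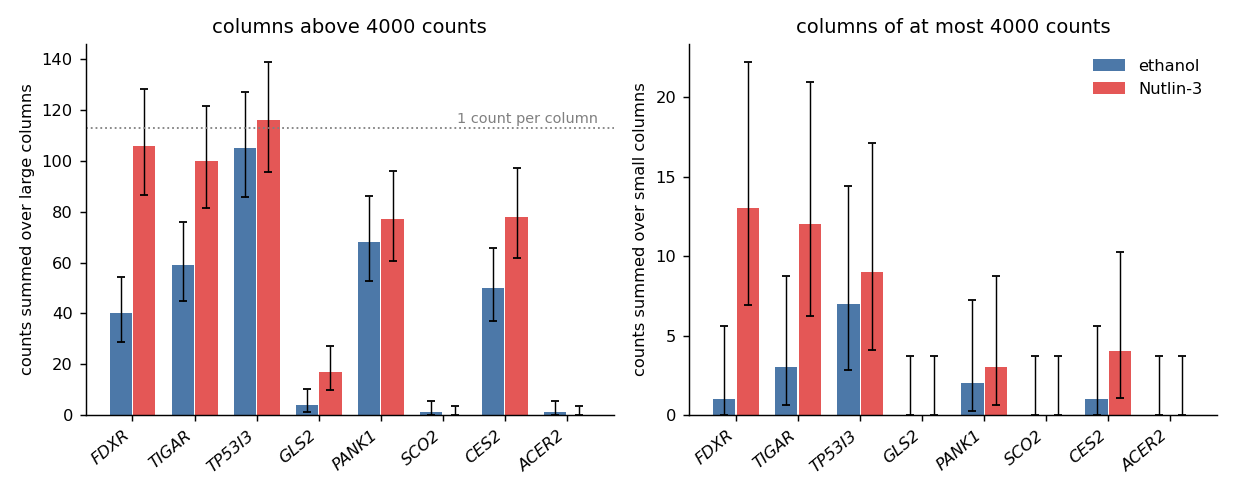
Counts of the 8 measured genes summed over the large columns (left) and the small columns (right) of each treatment, with 95% Poisson intervals as error bars and a dotted line at 1 count per large column. FDXR, TIGAR, CES2 and GLS2 are higher in Nutlin-3, TP53I3 stands near the dotted line in both treatments, and SCO2 and ACER2 have at most 1 count.

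FDXR, ferredoxin reductase, takes electrons from NADPH and hands them to the mitochondrial ferredoxins, which feed iron-sulfur cluster assembly and the steroid-forming cytochromes. FDXR (ENSG00000161513, chromosome 17, 74862497 to 74873031 on the minus strand, GRCh38) was counted 41 times in ethanol (29.4 to 55.6) and 119 in Nutlin-3 (98.6 to 142). The Poisson intervals did not overlap. Scaled to the pool's total count this was 30.5 against 91.5 CPM, a log2 fold change of 1.57 (1.06 to 2.13), or 2.97-fold. Of the large columns, 39 of 113 held FDXR in ethanol and 102 of 113 in Nutlin-3. That gain of 63 columns was reached or passed by 8 of the 14830 genes, FDXR included.

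The 2 ferredoxins that FDXR serves had nearly the same counts in both treatments. FDX1, the ferredoxin of steroid synthesis, was counted 86 times in ethanol and 94 times in Nutlin-3, or 0.17 (-0.26 to 0.61) on the log2 scale. FDX2, the ferredoxin of iron-sulfur assembly, had 72 and 72. The log2 fold change of FDXR exceeded that of FDX1 by 1.40 (0.71 to 2.11) and that of FDX2 by 1.53 (0.80 to 2.28), both intervals of counting error lying above 0. Of the 14 listed genes of ferredoxins and mitochondrial iron-sulfur assembly all 14 passed the filter, and 0 were called in either direction. Of these, 7 were seen in 90 or more of the 113 large columns on average, where calls were rare throughout (0.127% of 6318 genes higher and 0.19% lower), so the 0 says little about them. Their median log2 fold change was 0.02, with a range from -0.23 to 0.43.

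SCO2, a copper-binding assembly factor of cytochrome c oxidase, had almost no counts in its row. That row (ENSG00000130489, chromosome 22, 50523568 to 50525606, minus strand) held 1 count in ethanol and 0 in Nutlin-3, where a count of 0 allows up to 3 counts, or 2.31 CPM, as a one-sided limit (the upper end of the Poisson interval drawn in the plot of counts is 3.69). No fold is given. A second identifier of SCO2 in the annotation had no row and was not analysed here. Its paralogue SCO1, which acts in the same copper transfer, was counted 117 times in ethanol and 115 in Nutlin-3. All 14 listed assembly factors of cytochrome c oxidase passed the filter with 0 called, and their log2 fold changes lay between -0.21 and 0.20. As 12 of the 14 were seen in 90 or more large columns, this is no measure of their stability. U62317.2, an antisense gene that overlaps SCO2, had 64 counts under ethanol and 30 under Nutlin-3, with a log2 value of -1.03 (-1.72 to -0.40). It was picked out after its value was seen. Whether counting used the strand is not given in the sources used here, so reads from the stretch that both genes cover cannot be told apart. The annotated 3' end of SCO2, at 50523568, lies outside U62317.2, which runs from 50523926 to 50524780.

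TIGAR removes a phosphate from fructose-2,6-bisphosphate, an activator of glycolysis, and so favours the pentose phosphate route that yields NADPH. The gene (ENSG00000078237, chromosome 12, 4307763 to 4354593, plus strand) was counted 62 times in ethanol (47.5 to 79.5) and 112 in Nutlin-3 (92.2 to 135). The intervals did not overlap, and the log2 fold change was 0.89 (0.44 to 1.37), or 1.86-fold. It was seen in 59 of 113 large columns in ethanol and in 97 in Nutlin-3, a gain of 38 columns that 46 of the 14830 genes reached. AC008012.1, annotated as protein-coding, covers TIGAR on the same strand (4273762 to 4405490) and had no row. How reads of both were counted is not known.

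The other enzymes that set fructose-2,6-bisphosphate are the PFKFB kinases, which also carry a phosphatase domain related to TIGAR. PFKFB3 was at 105 counts in both treatments. PFKFB2 went from 28 with ethanol to 31 with Nutlin-3, and PFKFB4 from 47 to 29, none of them called. TIGAR exceeded PFKFB3 by 0.85 (0.23 to 1.48) and PFKFB4 by 1.54 (0.69 to 2.41) in log2 fold change. Its difference from PFKFB2, 0.70 (-0.22 to 1.63), did not exceed counting error. PFKFB3 was seen in 97 large columns in ethanol and 98 in Nutlin-3. In that range, 90 or more on average, 95% of log2 fold changes fell within -0.29 to 0.28, so its steady count says little. Of the 18 listed genes of fructose-2,6-bisphosphate, upper glycolysis and the pentose phosphate route 17 were tested and 0 were called. As 11 of the 17 were in that range, the 0 says little about them. The median of the 17 was -0.0044.

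GLS2 is the glutaminase of liver type, which turns glutamine into glutamate, a building block of glutathione. The gene (ENSG00000135423, chromosome 12, 56470944 to 56488414, minus strand) was rare, with 4 counts in ethanol (1.09 to 10.2) and 17 in Nutlin-3 (9.90 to 27.2). These Poisson intervals overlap slightly, while the interval of the log2 fold change of 2.01 (0.52 to 4.16) lay above 0. All of its counts came from large columns, 4 of 113 in ethanol and 17 of 113 in Nutlin-3, with never more than 1 in a column. That gain of 13 columns was reached by 891 of the 14830 genes. GLS2 ranked 75 by log2 fold change among the 3457 genes seen in under 30 large columns on average, of which 7.93% were called higher and 4.89% lower. A rare gene can enter that set through the pool where it is high, as GLS2 did. Its rank and these shares are thus shaped by the filter and give no support to its call. The counts of GLS2 are small, and the interval of its fold is wide. SPRYD4, which overlaps GLS2 on the opposite strand, had 116 and 117 counts. AC097104.1, annotated as protein-coding, covers most of GLS2 on the same strand (56449700 to 56488170) and had no row. How reads of both were counted is not known, so the low counts of GLS2 need not mean low expression.

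Of the 13 listed genes of glutamine and glutathione handling 0 were called higher and 2 lower (15.4%), against 3.86% and 2.86% of all genes. SLC7A11, the cystine importer that supplies glutathione synthesis, stood at 63 counts with ethanol and 18 with Nutlin-3, a log2 difference of -1.73 (-2.60 to -0.99). It was seen in 59 large columns in ethanol and 18 in Nutlin-3. GCLM, the modifier subunit of the enzyme that starts glutathione synthesis, had 109 and 73 counts, or -0.53 on the log2 scale (-0.98 to -0.09). Its catalytic partner GCLC, with 117 and 107 counts, was not called, nor was SLC3A2, the partner chain of SLC7A11, with 131 and 134. GPX4, which detoxifies lipid peroxides with glutathione, had 144 and 140 counts. GCLC, SLC3A2 and GPX4 were among the 11 of the 13 genes seen in 90 or more large columns on average. In that range 0.127% of genes were called higher and 0.19% lower, so the lack of a call says little about them.

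TP53I3, also known as PIG3, is a quinone oxidoreductase that uses NADPH. It (ENSG00000115129, chromosome 2, 24077433 to 24085861, minus strand) was the most counted of these genes in ethanol, with 112 counts (92.2 to 135), and had 125 in Nutlin-3 (104 to 149). The intervals overlapped widely and the log2 fold change of 0.20 (-0.18 to 0.59) was not called. TP53I3 was already present in 101 of 113 large columns in ethanol and reached 110 in Nutlin-3. It belongs to the 6318 genes seen in 90 or more of the large columns on average, of which 0.127% were called higher and 0.19% lower. In that set 95% of log2 fold changes fell within -0.29 to 0.28, and the highest, that of MDM2, was 0.72. TP53I3 ranked 362 of the 6318 from the highest.

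CRYZ, a quinone oxidoreductase of the same family, was counted 113 times under ethanol and 91 under Nutlin-3, and its log2 fold change differed from that of TP53I3 by 0.47 (-0.10 to 1.04), which includes 0. Of the 5 listed quinone oxidoreductases and relatives 1 was called lower (20%) and 0 higher, against 2.86% and 3.86% of all genes. The 1 called was NQO2, with 55 and 27 counts and a log2 value of -0.97 (-1.70 to -0.29). FAM228B lies over TP53I3 on the opposite strand. Its counts were 26 with ethanol and 49 with Nutlin-3, or 0.95 (0.25 to 1.71) on the log2 scale, and it was likewise picked after its value was seen. Reads of the 2 genes cannot be told apart where strand is unknown.

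**Figure D2:**
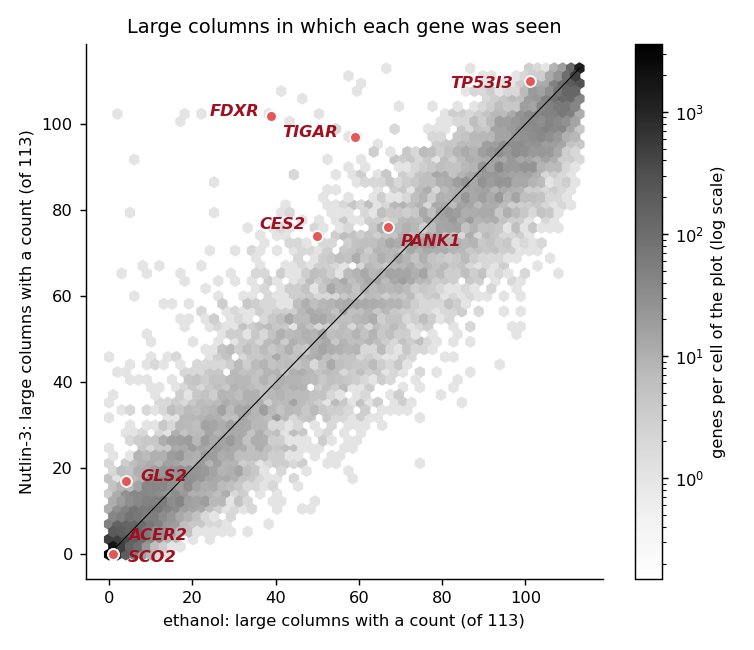
Number of large columns (of 113) with at least 1 count in ethanol (horizontal) and Nutlin-3 (vertical) for all genes, shaded by the number of genes on a log scale, with the 8 measured genes in red and the line of equality. FDXR (39 and 102) and TIGAR (59 and 97) lie above the cloud of genes and CES2 (50 and 74) at its upper edge, while TP53I3 (101 and 110) lies near the upper corner.

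PANK1 starts the synthesis of coenzyme A from pantothenate. The gene (ENSG00000152782, chromosome 10, 89579497 to 89645572, minus strand), which also hosts the microRNA MIR107, was counted 70 times in ethanol (54.6 to 88.4) and 80 in Nutlin-3 (63.4 to 99.6). The intervals overlapped, and the log2 fold change of 0.24 (-0.24 to 0.72) was not called. Unlike TP53I3 it was not near the limit of large columns, with 67 of 113 in ethanol and 76 in Nutlin-3. PANK2 and PANK3, its paralogues, had log2 fold changes of -0.05 and -0.02. Both were seen in 90 or more large columns on average, where calls were rare throughout. The difference of PANK1 from PANK2 was 0.29 (-0.33 to 0.90) and from PANK3 0.25 (-0.32 to 0.83), both intervals including 0. Of the 6 other listed genes of coenzyme A synthesis 0 were called, with log2 fold changes from -0.23 to 0.10. As 4 of the 6 were seen that widely, the 0 says little about them.

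CES2 is a carboxylesterase of the endoplasmic reticulum that cleaves esters, drugs among them. The gene (ENSG00000172831, chromosome 16, 66934444 to 66945096, plus strand) was counted 51 times in ethanol (38 to 67.1) and 82 in Nutlin-3 (65.2 to 102). The count intervals overlapped at their ends, and the interval of the log2 fold change of 0.73 (0.21 to 1.26) lay above 0. It was seen in 50 of 113 large columns in ethanol and 74 in Nutlin-3, a gain of 24 columns that 186 of the 14830 genes reached. CES3, a neighbouring paralogue, had 24 and 35 counts and a log2 value of 0.58 (-0.20 to 1.40), and the difference between the 2 paralogues, 0.14 (-0.84 to 1.11), did not exceed counting error. The other 3 listed carboxylesterases had no row and were not analysed here. AC009084.1 covers the 3' end of CES2 on the same strand (66942712 to 66963256) and had no row either.

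ACER2 is a ceramidase of the Golgi that frees sphingosine from ceramide. Its row (ENSG00000177076, chromosome 9, 19409059 to 19452020, plus strand) held 1 count in ethanol and 0 in Nutlin-3, with the same limit of 2.31 CPM, so a difference was not detectable at this depth. ACER3, another alkaline ceramidase, had 128 counts under ethanol and 125 under Nutlin-3. Among the 14 listed genes of ceramide and sphingosine handling 10 passed the filter and 1 was called higher (10%), against 3.86% of all genes. It was SGPP2, a phosphatase of sphingosine-1-phosphate, with 32 counts under ethanol and 57 under Nutlin-3. Its log2 value was 0.87 (0.23 to 1.55). SGPP2 was seen in 31 large columns in ethanol and 54 in Nutlin-3. Of the 2344 genes seen in 30 to under 60 on average, 8.83% were called higher. CERS4, a ceramide synthase, had 1 and 12 counts, with a loose log2 value of 3.10 (0.87 to 9.05), and did not pass the filter.

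**Figure D3:**
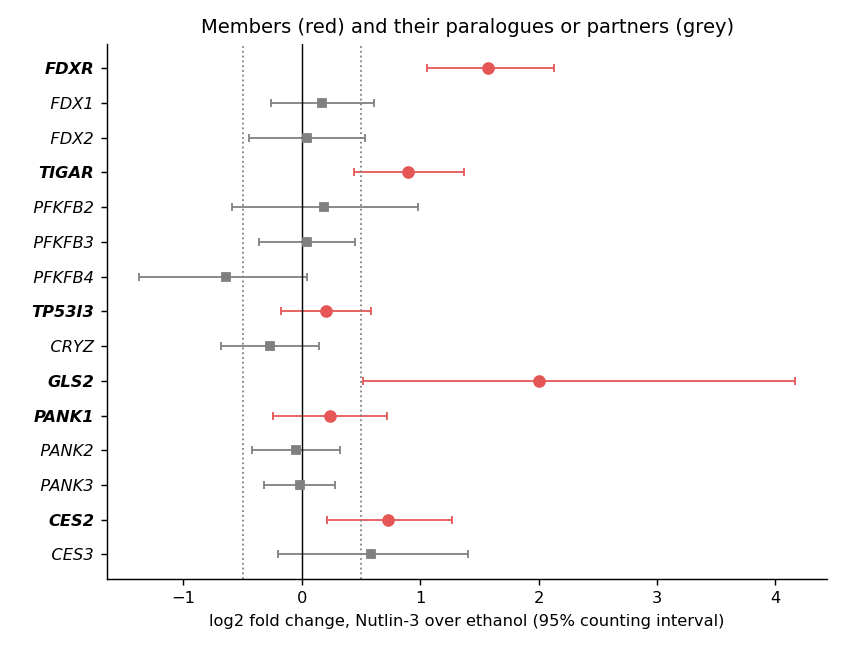
Log2 fold change between Nutlin-3 and ethanol with its 95% counting interval for the 6 genes that passed the filter (red circles) and paralogues or partner genes of 5 of them (grey squares, none drawn for GLS2), with dotted lines at 0.5 and -0.5. FDXR, TIGAR, GLS2 and CES2 have intervals above 0, whereas every grey interval includes 0. PFKFB3, CRYZ, PANK2 and PANK3 were seen in 90 or more large columns on average, where calls were rare throughout.

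Other enzymes with a textbook link to p53 or to peroxide removal were examined as a setting for these genes. Of 17 further p53-linked metabolism genes 15 were tested and 0 were called. Closest to it by its interval was DHRS3, a retinaldehyde reductase, with 81 counts under ethanol, 106 under Nutlin-3 and a log2 value of 0.43 (0.0032 to 0.87), under the limit of 0.5. CPT1A, which carries fatty acids into mitochondria, had the highest value of that list, 1.20 (-0.20 to 2.94), from 6 and 14 counts. The lowest was -0.79, and 9 of the 15 values lay above 0 and 6 below. The list was not split by the direction of a gene's link to p53. Of 14 genes of peroxide and thioredoxin defence 12 were tested, and TXNRD2, the mitochondrial thioredoxin reductase, was called lower with 77 and 50 counts and a log2 value of -0.57 (-1.12 to -0.04). Its cytosolic counterpart TXNRD1 had 136 and 137, and was seen in 113 large columns in ethanol and 108 in Nutlin-3. Of the 12, 11 were seen in 90 or more large columns on average, where calls were rare throughout. Over the 10 lists of related genes 1 of 107 tested genes was called higher (0.93%) and 4 lower (3.74%), against 3.86% and 2.86% of all genes. Of the 107, 71 were seen in 90 or more large columns on average.

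**Figure D4:**
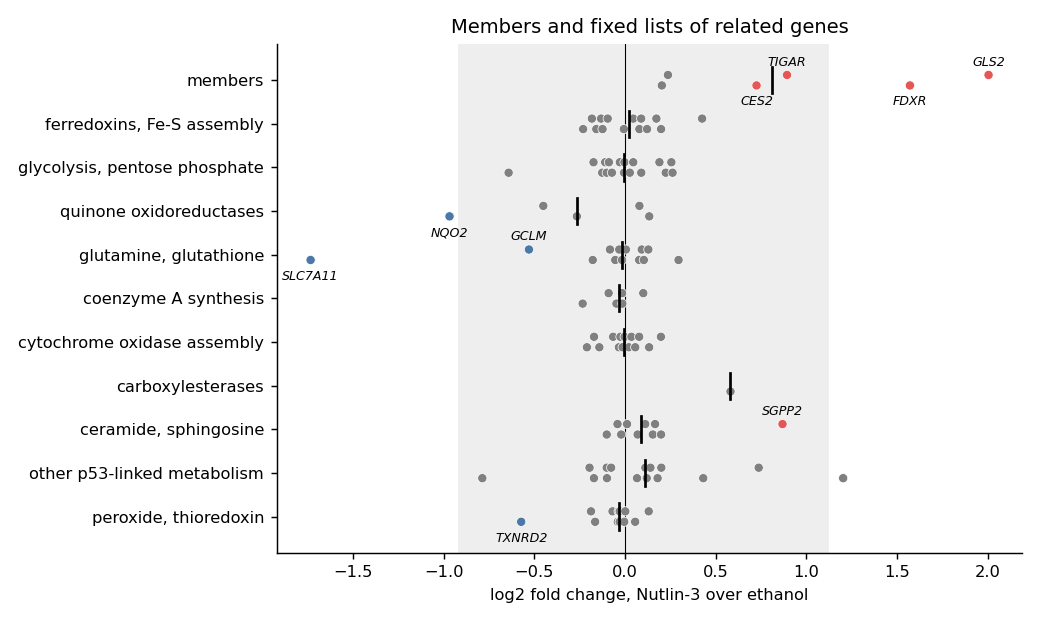
Log2 fold change between Nutlin-3 and ethanol for each tested gene of the 9-gene group (top line) and of the 10 lists of related genes, with red for genes called higher, blue for lower, grey for neither, a black bar at each median, and shading over the central 95% of all genes. Of the group 4 of 6 points are red, while in the related lists SGPP2 is the red point and SLC7A11, NQO2, GCLM and TXNRD2 are the blue ones.

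FDXR, TIGAR, PANK1 and CES2 were all seen in 60 to under 90 of the large columns on average, a set of 2711 genes of which 3.1% were called higher and 3.21% lower, and 3 of these 4 were called higher. By log2 fold change FDXR ranked 4, TIGAR 20, CES2 34 and PANK1 419 among the 2711. The highest value of that set was 2.60, and 95% of the set lay between -0.53 and 0.55. Counts above 1 in a large column were rare for every member, with at most 6 of 113 columns, reached by TP53I3 in Nutlin-3.

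Small columns gave the same order of treatments with few counts. Summed over the 8 genes with a row, large columns held 328 counts in ethanol and 494 in Nutlin-3, a log2 fold change of 0.63 (0.43 to 0.84), and small columns held 14 and 41, or 1.65 on that scale (0.78 to 2.68). The difference of 1.06 between the classes (0.12 to 2.07) exceeded counting error for the sum, if counts were not merged. Of the genes used to check the treatment, CDKN1A had 1.13 in large and 3.84 in small columns, and MDM2 0.77 and 0.66. As large columns rarely held more than 1 count of a member, their folds may be held down. The part of this in the difference was not tested. For FDXR small columns held 1 and 13 counts, against 40 and 106 in large columns, and for TIGAR 3 and 12 against 59 and 100. The difference between classes did not exceed counting error for either gene, at 2.38 (-0.44 to 7.84) for FDXR and 1.33 (-0.64 to 3.85) for TIGAR. In small columns alone 3.38% of the 4762 genes that passed the filter were called higher and 2.79% lower, and in large columns alone 3.6% of 14759 and 2.56%.

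Shares of columns were also compared at equal depth, in a single random draw per depth. Their exact binomial intervals treat columns as independent, although columns are not replicates of a treatment. Whether such intervals are apart or overlap is thus no test between treatments. When each large column was thinned at random to 5000 counts, FDXR was seen in 16.8% of the 113 ethanol columns (10.4 to 25 as exact binomial interval) and 38.9% of the 113 Nutlin-3 columns (29.9 to 48.6). TIGAR was seen in 23.0% (15.6 to 31.9) and 51.3% (41.7 to 60.8). For both genes the intervals were apart in the draw made at this depth, and other draws were not made. At 2500 counts they overlapped, with 6.19% (2.53 to 12.3) and 18.6% (11.9 to 27) for FDXR and 12.4% (6.94 to 19.9) and 21.2% (14.1 to 29.9) for TIGAR. CES2, with 22.1% (14.9 to 30.9) and 35.4% (26.6 to 45), had overlapping intervals, as had PANK1, with 30.1% and 34.5%, and TP53I3, with 46.0% and 48.7%. GLS2 was seen in 1.77% and 6.19%. Without thinning the shares were 34.5% and 90.3% for FDXR and 89.4% and 97.3% for TP53I3. With a single cell line there was no other cell type to show what free RNA alone would give.

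Scaling to ERCC counts lowered each fold change by the same amount, which put the median over all genes at -0.47. FDXR, at 1.10 (0.59 to 1.66), and GLS2, at 1.54 (0.05 to 3.69), were still called higher on that scale. TIGAR, at 0.43 (-0.03 to 0.90), and CES2, at 0.26 (-0.26 to 0.80), were not, and TP53I3 and PANK1 turned to -0.27 and -0.23. Against the shifted median of all genes the 6 genes kept the same distance. The pools mix both ERCC dilutions in unknown proportion, so a difference in RNA per cell and a difference in mixture cannot be told apart.

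**Figure D5:**
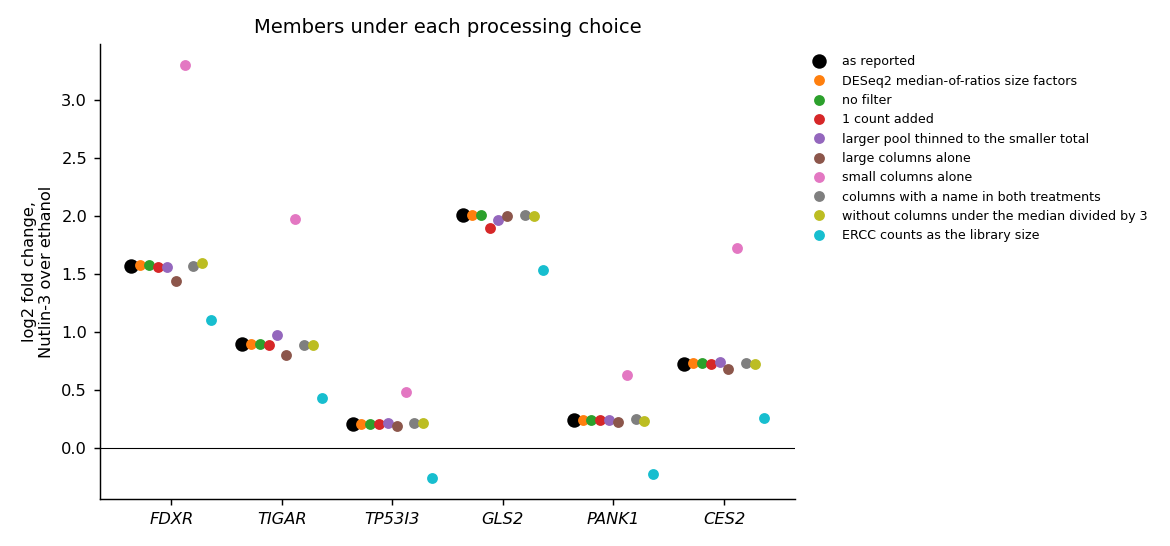
Log2 fold change of the 6 genes that passed the filter as reported (black) and under 9 other processing choices (colours). FDXR, TIGAR, GLS2 and CES2 stay above 0 wherever a value is drawn, small columns alone give the highest values where drawn (GLS2 has none), and scaling to ERCC counts gives the lowest, below 0 for TP53I3 and PANK1.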

How the data were processed

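The authors deposited 1 table of raw counts, whole numbers for each Ensembl gene in each column. Per the labels' protocols, libraries came from a 3' kit run on the ddSeq device. For the aligner, barcode and molecular tag handling, genome build and column filter, the entry is: not given in the sources used here. Columns carry 12 bases and the word treated, taken as Nutlin-3, or untreated, taken as ethanol. 0 columns belonged to neither. No doublet caller was run, because columns were only summed or counted per treatment, and the authors' treatment of doublets is not known here.

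Counts were summed per treatment without the 62 ERCC species. Scaling used TMM of edgeR 4.0.16 in R 4.3.3, with its low-count filter (minimum 10) and 0.5 counts added before log2. Fold-change intervals are exact binomial, those between genes or column classes exact conditional. Positions come from GENCODE release 29 (GRCh38), which need not be the authors' build. The calculation was tested on simulated pools with Poisson counts and known fold changes. Such pools show whether the calculation runs correctly. They hold no merged counts and no variation between libraries, so they do not show that the intervals hold for these data. Alternatives included DESeq2 1.42.0 size factors.

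Members, gene lists, the limit of 4000 counts and the rule of size were chosen with earlier results of these data known. The ranges of large columns were set after seeing these counts. Named genes are all members, their fixed paralogues and partners, called genes of each list, and a few genes picked out afterwards: list genes not called, shown for comparison, and overlapping genes. Values of 2 related genes are not reported here.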

Additional observations from a re-analysis of the deposited data

How the results depend on the processing

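No paired analysis was possible because a column's name gives its treatment and nothing about its library. For the same reason the planned tests of edgeR and DESeq2, the block and the omission of single libraries were not run. Of the 69 values of single genes under 9 alternatives, 64 stayed within the counting interval of the reported value and 5 left it, 3 in small columns alone and 2 under ERCC scaling. The intervals of SCO2 and ACER2 had no lower end, so their values could hardly leave them. Size factors, no filter and 1 count added also reused the same counts with nearly the same scaling. The 64 is therefore no measure of stability. Size factors, no filter, 1 count added, equal pool totals, large columns alone, names shared by both treatments and removal of shallow columns each left 4 genes called higher. Removing the filter lowered the median to 0.48 by adding SCO2 and ACER2, each at 1 and 0 counts. In small columns alone 1 gene of the group, TIGAR, passed the filter, and 1 was called, with 161 of all genes called higher and 133 lower. ERCC scaling gave 2 genes called higher, FDXR and GLS2, and over all genes 167 higher and 5349 lower against 573 and 424 as reported, since it subtracts 1 constant from every gene. Counts of 4 to 17 limit GLS2, and counts of 0 and 1 limit SCO2 and ACER2. In the single random draw at 2500 counts the intervals of all members overlapped between treatments. That draw gave in ethanol and Nutlin-3 6.19% and 18.6% of large columns for FDXR, 12.4% and 21.2% for TIGAR, 7.96% and 15.9% for CES2, 7.08% and 16.8% for PANK1, 0.885% and 1.77% for GLS2, 19.5% in both for TP53I3, and 0 in both for SCO2 and ACER2.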
